A study of Homo sapiens with 18 samples.

Results

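Integrins and laminins are the receptors and the ligands through which epithelial cells hold on to the basement membrane. Their chains were picked by symbol from the count table of HCT116 cells. The rule took every protein-coding gene named as an integrin alpha or beta chain or as a laminin alpha, beta or gamma chain. No measured value entered the rule, but it was set with earlier results of these data known. The rule found 34 of the 31004 genes in the table, namely 23 integrin chains and 11 laminin chains. HCT116 is an established line of human colorectal carcinoma cells. It was sequenced as 18 RNA-seq libraries in 6 groups of 3 biological replicates. In the Ctrl background the cells carried the empty control, in the CRLM1 background they stably overexpressed the long noncoding RNA CRLM1, and in the Antisense background they carried the antisense control of that RNA. Each background was combined either with a construct overexpressing hnRNPK, an RNA- and DNA-binding protein (Ctrl_hnRNPK, CRLM1_hnRNPK and Antisense_hnRNPK), or with its negative control (Ctrl_NC, CRLM1_NC and Antisense_NC). CRLM1 was delivered with a lentivirus that carries puromycin resistance, and the hnRNPK construct by lipid transfection. All groups share the parental line, and neither the labels nor the methods say whether a background is 1 clone or a pool.

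An integrin is a dimer of 1 alpha and 1 beta chain that spans the membrane and ties the matrix outside to the cytoskeleton inside. ITGB1 pairs with many alpha chains, ITGB4 pairs with ITGA6 alone in the hemidesmosome, and ITGAV pairs with several beta chains. A laminin is a trimer of an alpha, a beta and a gamma chain. LAMA3 and LAMB3 belong to the classic ligand of the integrins alpha3beta1 and alpha6beta4 beneath epithelia, and LM511 and LM521, built on LAMA5, are broader basement membrane forms.

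The libraries held between 19732681 and 27039520 counts. CRLM1, listed as RP4-710M16.2, had no count in any of the 6 Ctrl libraries, 598 ± 11.7 CPM (counts scaled to a common library size) in CRLM1_NC and 49.4 ± 0.566 in Antisense_NC (mean ± SD, n = 3). Without a stated strand, its reads in the Antisense libraries cannot be assigned to the sense or the antisense RNA. HNRNPK was at 420 to 480 CPM in the 9 NC libraries and at 490 to 717 in the 9 hnRNPK libraries, the lowest of these being the third Ctrl_hnRNPK library. The third CRLM1_hnRNPK library was at 581 CPM, below its own replicates (677 and 717) but above the CRLM1_NC libraries (454 to 462). It was also above the Antisense_hnRNPK libraries (533 to 573 CPM). The third hnRNPK libraries of Ctrl and of CRLM1 stood apart. Over 12964 genes they correlated at 0.952 to 0.959 and 0.945 to 0.951 with their own replicates but at 0.991 to 0.992 and 0.985 to 0.986 with the NC libraries of their background. Results that rest on them are given with and without them. They were singled out by their profile, so p-values from fits without them are descriptive. Epithelial markers summed to between 1844 and 3512 FPKM (fragments scaled to gene length and library size) in each library, although VIL1 did not exceed 0.11 and CDX2 did not exceed 3.27 FPKM. The fibroblast list summed to 1.71 to 3.91 FPKM, nearly all of it COL1A1 (up to 3.9, with each of the other 5 genes at 0.04 or less). The white blood cell list summed to 0.02 to 0.29 and the endothelial list to 0 to 0.08 FPKM.

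HCT116 cells expressed a restricted set of these chains, led by the receptors and ligand of laminin adhesion. In FPKM, which corrects for gene length and allows genes to be compared, ITGB1 stood at 193, 189 and 194 in the 3 Ctrl_NC libraries and LAMB3 at 193, 189 and 186. These 2 highest chains did not differ beyond their spread. ITGB4 followed at 105 ± 1.68, ITGA3 at 71.7 ± 1.18, ITGA5 at 37.1 ± 1.18 and ITGB5 at 31.8 ± 0.488 FPKM (n = 3 each), and no neighbours among these overlapped. LAMC1, the gamma1 chain shared by most laminins, and LAMB2 came next at 23.6 ± 0.616 and 22.7 ± 0.666 FPKM with overlapping libraries. LAMA5 was at 17.2 ± 0.50, above ITGA6 at 13.2 ± 0.601 and LAMB1 at 12.1 ± 0.361 FPKM, whose libraries overlapped. ITGAV reached 5.46 ± 0.236 FPKM. ITGA7, LAMC3, LAMA3 and ITGAE lay between 1.80 and 2.65 FPKM, each overlapping the next in the order, and ITGA2, the collagen-binding alpha chain, was at 1.12 ± 0.0306 FPKM.

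Of the 34 chains, 16 had at least 1 FPKM in every library and 16 stayed under 1 FPKM in every library. LAMA3 fell on either side of that value depending on the group, and within Antisense_hnRNPK it read 0.94, 0.95 and 1.08 FPKM. ITGA2 was below 1 FPKM in a single library, the third CRLM1_hnRNPK library (0.93 FPKM, beside 2.27 and 2.04 in its replicates). Among the low chains were the partners that make integrins of white blood cells. ITGB2 and ITGAL never had more than 4 counts, and ITGB7 never more than 11, with 42.3% of its exon sequence overlapping other genes. ITGB3 and ITGB6, the other beta partners of ITGAV, reached at most 11 and 8 counts, so ITGB5 and ITGB1 were the beta chains present at a measurable level for ITGAV, with ITGB8 between 0.0867 and 0.207 FPKM in the NC groups. LAMA1, the alpha chain of the embryonic LM111, reached at most 5 counts. A count of 3 corresponded to 0.111 to 0.152 CPM in a library, and chains near that level were not detectable apart from 0 at this depth. In total 26 chains passed the filter on low counts in at least 1 comparison of 2 groups, 24 in all 6 comparisons and 8 in none (ITGB2, ITGB3, ITGB6, ITGB7, ITGA8, ITGA11, ITGAL and LAMA1). ITGA9 and ITGA10, with at most 15 counts, were tested in some comparisons and passed no test.

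**Figure D1:**
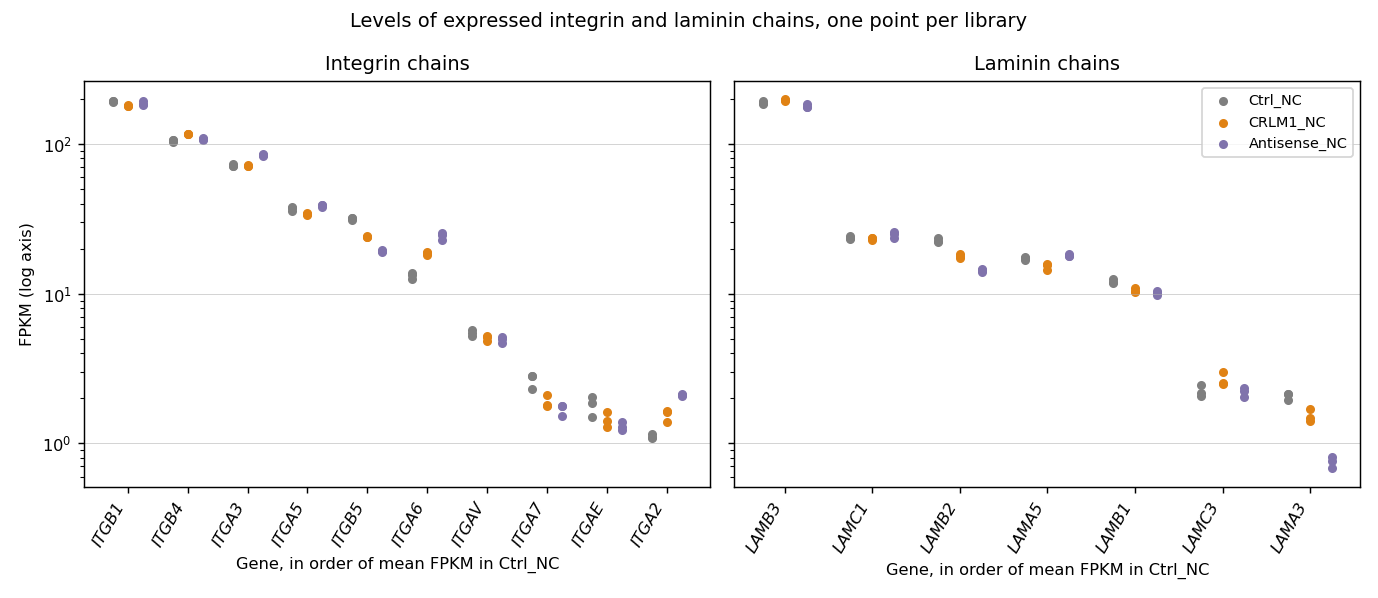
Levels of the integrin and laminin chains that reached 1 FPKM in an NC group, as FPKM on a log axis, with 1 point for each of the 3 libraries of Ctrl_NC, CRLM1_NC and Antisense_NC. ITGB1 and LAMB3 lead near 190 FPKM, and LAMA3 lies near 2 in Ctrl_NC and below 1 in Antisense_NC.

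The ratio between the chains of a dimer or trimer was uneven. ITGB4 exceeded its only alpha partner ITGA6 by 8.01 ± 0.416 times in FPKM in Ctrl_NC (n = 3). The summed FPKM of the alpha partners of ITGB1 in the set (ITGA1, ITGA2, ITGA3, ITGA5 to ITGA11 and ITGAV) was made up of 54.6% ITGA3, a laminin receptor, 28.3% ITGA5, the fibronectin receptor, and 10.0% ITGA6, another laminin receptor. ITGAV gave 4.15%, ITGA7, also a laminin receptor, 2.02%, ITGA2 0.851% and the low chains ITGA1 and ITGA8 to ITGA11 together 0.0916%. Among the laminins, LAMB3 exceeded its alpha partner LAMA3 by 91.7 ± 3.67 times in FPKM, and LAMA5 was 8.32 ± 0.272 times higher than LAMA3.

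LAMA3 and LAMB3 are partner chains of the same laminin, and promoter sequence is shown for this pair. LAMB3 differed less between backgrounds than ITGB5 or LAMB2, as described next. RefSeq start sites (GRCh38.p14) were matched for 23 of the 34 chains, with 30 windows of 250 bases before to 50 bases after the start. The letters TGANTCA, the AP-1 motif and a pattern that reads the same on both strands, were found in 3 of these 30 windows (10.0%), beside 7.71% of the 35116 windows of all genes. The 3 windows belong to LAMA3, LAMB3 and ITGA5. The windows of ITGB5 and LAMB2, which also differed between backgrounds, do not hold it. Both sequences below run 5′ to 3′ and end 1 base before the start site, and the capitals mark the motif. LAMA3 lies at chr18:23689453-23956222 on the plus strand. The 150 bases of its window that are shown, chr18:23872870-23873019, precede a start site inside the gene. LAMB3 lies at chr1:209614870-209652425 on the minus strand, and the 150 bases shown, chr1:209651375-209651524, likewise precede a start site inside the gene. LAMB3 has 3 windows, and the 2 that lie further upstream do not hold the motif.
LAMA3: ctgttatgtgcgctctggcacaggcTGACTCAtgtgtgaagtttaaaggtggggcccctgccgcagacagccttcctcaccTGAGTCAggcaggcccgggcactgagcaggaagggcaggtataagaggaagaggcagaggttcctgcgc
LAMB3: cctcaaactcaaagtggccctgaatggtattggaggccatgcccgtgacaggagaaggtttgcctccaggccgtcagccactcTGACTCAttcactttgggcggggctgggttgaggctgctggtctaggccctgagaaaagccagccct
The motif began 125 and 69 bases before the LAMA3 start site and 67 bases before that of LAMB3. A match of letters is a description of the sequence, and no binding was measured here.

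The first comparison asked what CRLM1 overexpression changed beside the empty control. In CRLM1_NC the laminin chains LAMA3, LAMA5, LAMB1, LAMB2 and LAMC1 and the receptor chains ITGB5, ITGB1 and ITGA5 fell slightly, while the laminin receptor chain ITGA6 and the collagen receptor chain ITGA2 rose. Of the 24 chains tested, 14 fell and 4 rose in the edgeR quasi-likelihood test (Benjamini-Hochberg adjusted p at most 0.05), which is 75% of them beside 34.3% of all genes tested in that comparison. By direction, 58.3% of the chains fell beside 17.4% of all genes, and 16.7% rose beside 16.9%. The median log2 fold change was -0.13 for the chains and 0.0059 for all genes tested. The changes were small, as 1 chain (4.17%, beside 1.58% of all genes) also differed by at least 2-fold. In a single fit of 18 libraries, whose spread includes the third hnRNPK libraries, 0 chains passed, and limma on the FPKM scale passed 3 chains that rose and 9 that fell.

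That chain was ITGB8, a partner of ITGAV that activates TGF-beta. It was at 0.661, 1.00 and 1.69 CPM in Ctrl_NC and at 2.70, 2.5 and 2.64 CPM in CRLM1_NC. The groups did not overlap, and the rise was 2.27-fold (log2 1.18 ± 0.30 SE, adjusted p = 0.0018), at counts between 12 and 60 over all libraries. ITGA6 read 114, 105 and 111 CPM in Ctrl_NC against 152, 147 and 149 in CRLM1_NC. All CRLM1_NC libraries were above all Ctrl_NC libraries, a 1.34-fold rise (log2 0.43 ± 0.041, edgeR adjusted p = 5.4e-11). The log2 fold change was 0.39 ± 0.11 for ITGA2 (adjusted p = 0.0033) and 0.07 ± 0.028 for ITGB4 (adjusted p = 0.039), both past the threshold.

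On the lower side, ITGB5, the vitronectin-receptor partner of ITGAV, was at 195, 201 and 199 CPM in Ctrl_NC and at 144 CPM in each CRLM1_NC library. The groups were far apart for their spread, and the log2 fold change was -0.48 ± 0.036 (edgeR adjusted p = 8.5e-14). LAMA3 was at 33.4, 33.8 and 30.7 CPM in Ctrl_NC and at 21.5, 22.5 and 25.3 in CRLM1_NC, without overlap, a log2 fold change of -0.51 ± 0.080 (adjusted p = 2.3e-06). LAMB2, the beta2 chain, fell by 0.42 on the log2 scale (adjusted p = 9.2e-12). LAMB3 was at 1216 ± 22.1 CPM in Ctrl_NC and at 1208 ± 7.84 in CRLM1_NC and did not pass the test. Among the other chains that fell, ITGB1 did so by 0.16 and ITGA5 by 0.19 on the log2 scale, LAMA5 by 0.25, LAMB1 by 0.28, LAMC1 by 0.10, ITGAV by 0.17 and ITGA3 by 0.08. ITGA7 (-0.56), ITGAX (-0.58) and ITGAE (-0.42) are low chains, and the CRLM1_NC and Ctrl_NC libraries of ITGAE overlapped. The calls of ITGA3, ITGB4, ITGAX, ITGAE, LAMC1 and ITGAV were each lost in at least 2 of the 6 fits that left out 1 library.

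The antisense control was compared with the empty control in the same way. Here LAMA3, LAMB2 and the receptor chain ITGB5 fell clearly, while the receptor chains ITGA6 and ITGA2 rose. Of 25 chains tested, 18 fell and 3 rose, or 84.0% beside 66.5% of all genes tested. By direction, 72.0% of the chains fell beside 32.2% of all genes, and 12% rose beside 34.4%. The median log2 fold change was -0.27 for the chains and -0.0025 for all genes, and 5 chains (20%, beside 14.1% of all genes) also differed by at least 2-fold. On the FPKM scale, where the median gene sat 0.23 higher on the log2 scale, limma passed 3 chains that rose and 9 that fell.

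LAMA3 was at 9.32, 11 and 10.5 CPM in Antisense_NC against 33.4, 33.8 and 30.7 in Ctrl_NC. No library overlapped, and the log2 fold change was -1.70 ± 0.093 (edgeR adjusted p = 2.3e-18). LAMB3 was at 984, 979 and 1035 CPM against 1238, 1215 and 1194, also without overlap and by a smaller step (log2 fold change -0.32, adjusted p = 1.6e-11). The ratio of LAMB3 to LAMA3 in FPKM was 240 ± 20.1 in Antisense_NC and 91.7 ± 3.67 in Ctrl_NC (n = 3 each). LAMA4, the alpha4 chain best known from vessel walls, was low throughout, with 0.472, 0.416 and 0.709 CPM against 1.87, 1.92 and 2.36, and had a log2 fold change of -1.99 ± 0.35 (adjusted p = 4.2e-06). LAMB2 had a log2 fold change of -0.89 and LAMB1 of -0.50.

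Among the receptors, ITGB5 was at 104, 104 and 107 CPM in Antisense_NC, below every Ctrl_NC library (195 to 201), at a log2 fold change of -0.95 ± 0.040 (edgeR adjusted p = 1.1e-21). ITGA6 was at 179, 183 and 166 CPM, above every Ctrl_NC library (105 to 114), at 0.65 ± 0.044 (adjusted p = 1.7e-15). ITGA2 rose by 0.68 on the log2 scale, from 12.5 ± 0.337 to 20.6 ± 0.337 CPM. With ITGB4 at 831 ± 6.98 CPM beside 931 ± 16.3, the FPKM ratio of ITGB4 to ITGA6 was 4.47 ± 0.197 in Antisense_NC and 8.01 ± 0.416 in Ctrl_NC. LAMA2, the alpha2 chain known from muscle, rose by 1.21 (SE 0.31, adjusted p = 0.00078) from at most 1.21 CPM in Ctrl_NC to between 1.82 and 2.88 CPM. The small falls of ITGB4 (-0.20), ITGA5 (-0.18), LAMC1 (-0.16) and LAMA5 (-0.16) took the opposite sign on the FPKM scale, so their direction depends on how libraries are scaled. ITGB1 (-0.27), ITGAV (-0.38) and ITGA7 (-0.87) fell as well. ITGAX (-0.87), ITGAE (-0.72), ITGAM (-1.38) and LAMC3 (-0.25) also fell, and for the last 2 the groups overlapped. The call of LAMC3 was lost in 3 of the 6 fits that left out 1 library (adjusted p up to 0.14), with DESeq2, without the filter, on the FPKM scale and with the trend on GC content and length removed.

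**Figure D2:**
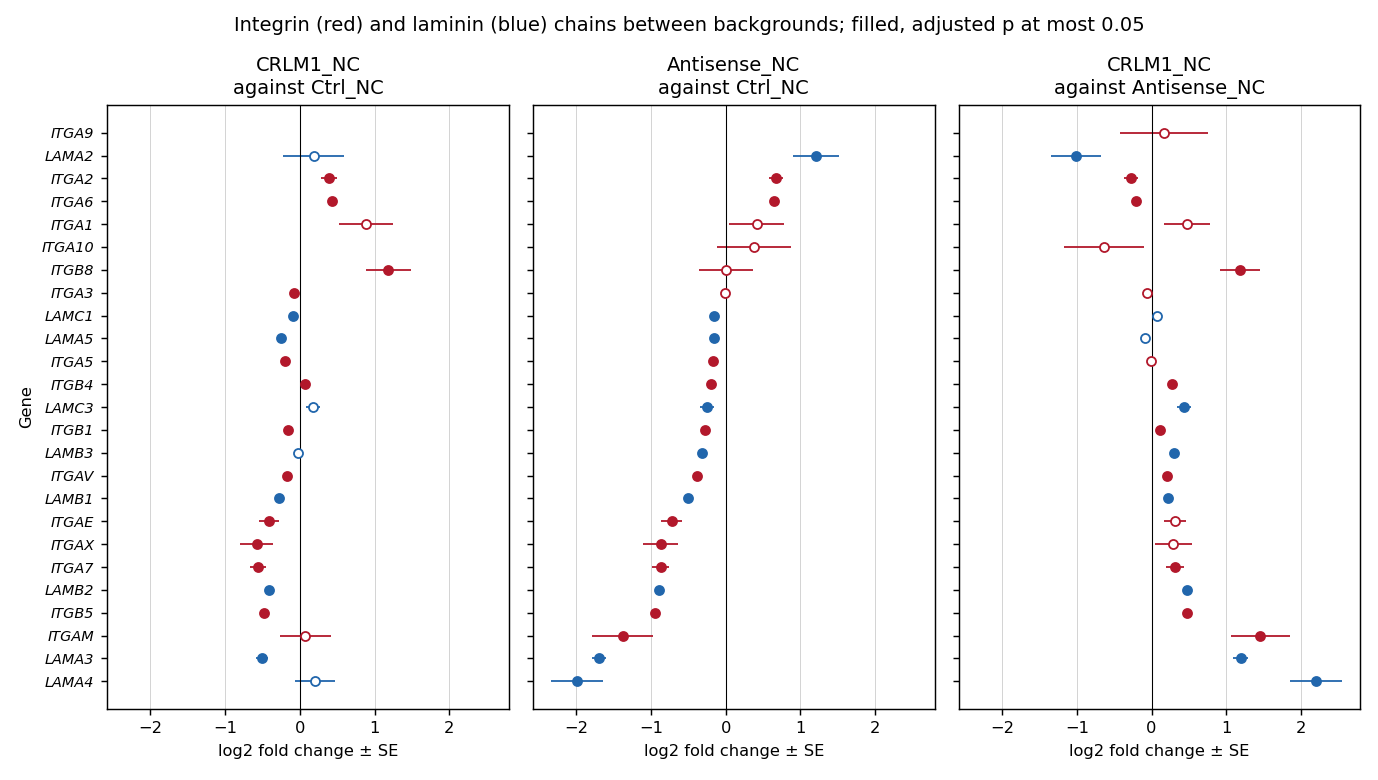
Log2 fold changes with standard errors of the tested integrin chains (red) and laminin chains (blue) in the 3 comparisons among NC groups, filled where adjusted p was at most 0.05. LAMA3 reads -0.51 for CRLM1_NC against Ctrl_NC, -1.70 for Antisense_NC against Ctrl_NC and 1.19 for CRLM1_NC against Antisense_NC.

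CRLM1_NC was also set against Antisense_NC, the comparison that has an expressed construct on both sides. The laminin chains LAMA3, LAMA4, LAMB1, LAMB2, LAMB3 and LAMC3 were higher with CRLM1, LAMA2 was lower, and so were ITGA6 and ITGA2 in the counts as deposited. Of 26 chains tested, 14 were higher and 3 lower, or 65.4% beside 56.4% of all genes. By direction, 53.8% were higher beside 26.9% of all genes, and 11.5% were lower beside 29.5%. At least 2-fold differences were found for 5 chains (19.2%, beside 7.18% of all genes). The median log2 fold change was 0.28 for the chains and -0.0034 for all genes. On the FPKM scale the median gene was 0.16 lower on the log2 scale and limma passed 7 chains higher and 5 lower.

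LAMA3, with 21.5, 22.5 and 25.3 CPM in CRLM1_NC and 9.32, 11 and 10.5 in Antisense_NC, was 2.28-fold higher (log2 1.19 ± 0.10, edgeR adjusted p = 1.8e-12). The groups did not overlap, and LAMB3 was higher by 0.30 on the log2 scale. ITGB8 was at 1.20, 1.16 and 1.11 CPM in Antisense_NC and at 2.70, 2.5 and 2.64 in CRLM1_NC, without overlap (log2 1.19 ± 0.27, adjusted p = 0.00026). LAMA4 (2.20) and ITGAM (1.46) had the highest log2 fold changes at low counts. LAMB2 (0.48), ITGB5 (0.48), LAMC3 (0.43), ITGA7 (0.32), ITGB4 (0.28), LAMB1 (0.23) and ITGAV (0.21) were moderately higher. ITGB1, at 0.12, changed sign on the FPKM scale. The log2 fold change was -0.21 for ITGA6, -0.28 for ITGA2 and -1.01 for LAMA2. With the trend on GC content and length removed, ITGA6 and ITGA2 stood at -0.04 and -0.04 and no longer passed (edgeR adjusted p = 0.41 and 0.75), and the lower chains were ITGA3, LAMA2 and LAMA5. The calls of ITGA2, ITGA7 and LAMA2 each depended on single libraries, as LAMA2 stood at -0.62 without the third CRLM1_NC library and -0.77 without the first Antisense_NC library and no longer passed. The 3 comparisons among NC groups share libraries pair by pair, so their values are not independent of one another.

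LAMA3, ITGB5 and LAMB2 were highest with the empty control and lowest with the antisense control among the NC groups. LAMA3 averaged 32.6 ± 1.68 CPM with the empty control, 23.1 ± 1.98 with CRLM1 and 10.3 ± 0.871 with the antisense control. ITGB5 was at 198 ± 3.21, 144 ± 0.378 and 105 ± 1.98 CPM in the same order, and LAMB2 at 186 ± 5.82, 141 ± 2.54 and 103 ± 3.49 CPM. In these genes no library of one group entered the range of the next. The order of ITGA6 ran the other way, with 110 ± 4.85, 149 ± 2.86 and 176 ± 8.79 CPM, again without overlap. For ITGA6 the step between CRLM1 and the antisense control did not pass with the trend on GC content and length removed. ITGA3 differed little in CPM, at 495 to 510, 472 to 489 and 499 to 522, with the CRLM1 libraries below the others. In FPKM it read 71.0 to 73.1, 70.9 to 72.5 and 82.7 to 85.2, so its order depended on the scale. In these bulk libraries, fewer cells holding a transcript and less of it per cell cannot be told apart.

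**Figure D3:**
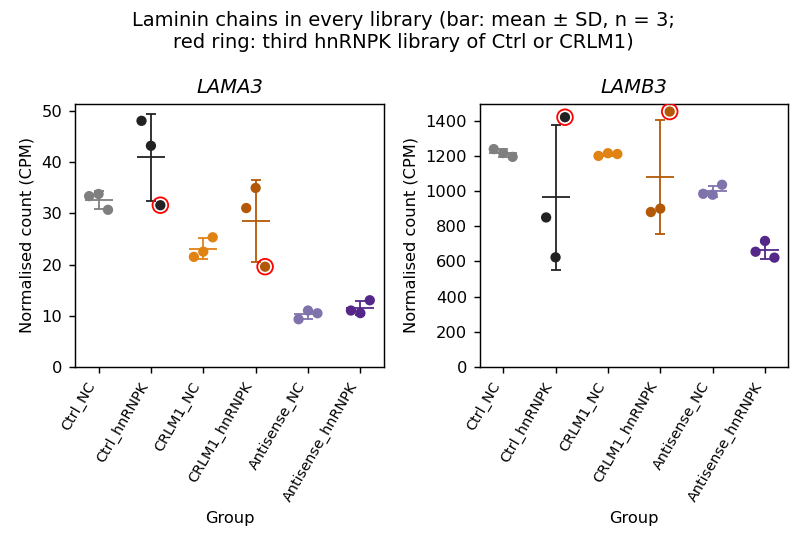
CPM of the laminin chains LAMA3 and LAMB3 in each library of the 6 groups, with mean ± SD, and with red rings around the third hnRNPK libraries of Ctrl and CRLM1. Both are lowest in Antisense_NC among the NC groups, and the ringed libraries lie above their own replicates for LAMB3 and below them for LAMA3.

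The next comparisons asked what hnRNPK overexpression changed within each background. In the Antisense background, where the 3 hnRNPK libraries resembled each other (r of 0.988 to 0.994), receptor chains parted: ITGB1 and its partners ITGA2, ITGA6 and ITGAV rose, while ITGB4, ITGA5, ITGB5 and ITGA7 fell. On the ligand side LAMB3, LAMA5, LAMB2, LAMC1 and LAMC3 fell, and LAMA2 rose. In all, 15 of 25 chains passed (6 higher and 9 lower), or 60% beside 63.9% of all genes tested, a share near the background. The higher share was 24.0% beside 33.4% and the lower share 36.0% beside 30.5%. At least 2-fold changes were found for 4 chains (16%, beside 13.4%). On the FPKM scale, where the median gene was 0.24 higher on the log2 scale, limma passed 7 higher and 7 lower.

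ITGB1 was at 909, 945 and 894 CPM in Antisense_NC and at 1332, 1275 and 1487 in Antisense_hnRNPK. The groups did not overlap (log2 0.57 ± 0.084, edgeR adjusted p = 3.8e-05). ITGA2 was at 21.0, 20.4 and 20.4 CPM against 48.7, 90.6 and 43.6, a 2.96-fold rise (log2 1.57 ± 0.27, adjusted p = 0.0012). Its second hnRNPK library stood far above the other 2, and without that library the log2 fold change was 1.13. ITGA6 and ITGAV rose by 0.45 and 0.72 on the log2 scale.

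ITGA5 went from 216, 208 and 217 CPM in Antisense_NC to 109, 94.8 and 108 in Antisense_hnRNPK, without overlap (log2 fold change -1.05 ± 0.078, edgeR adjusted p = 1.5e-07). ITGB4 went from 837, 833 and 824 CPM to 421, 508 and 456, a log2 fold change of -0.85. ITGB5 had a log2 fold change of -0.80 and ITGA7, known from muscle, of -0.65. In FPKM the ratio of ITGB4 to ITGA6 was 1.80 ± 0.0832 in Antisense_hnRNPK and 4.47 ± 0.197 in Antisense_NC, and the ratio of ITGB1 to ITGB4 was 4.69 ± 0.645 and 1.73 ± 0.0450. Among the summed alpha partners of ITGB1, ITGA7 included, the share of ITGA5 was 12.7% and that of ITGA6 22.2%, against 24.8% and 15.5% in Antisense_NC. These ratios and shares are not corrected for the trend on GC content described below. With that trend removed, the changes of ITGB1, ITGB4 and ITGA6 did not pass. ITGA3 was at 449, 712 and 389 CPM against 512, 499 and 522, and with its second hnRNPK library above and the others below the NC range, no difference was detectable.

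LAMB3 went from 984, 979 and 1035 CPM to 655, 716 and 621 (log2 fold change -0.60), without overlap. LAMA3, at 10.3 ± 0.871 and 11.5 ± 1.33 CPM, did not pass. Among the LAMA5 laminins, LAMA5 went from 263, 253 and 254 CPM to 135, 158 and 140 (-0.84), LAMB2 had a log2 fold change of -0.68 and LAMC1 of -0.26. LAMC3, the gamma3 chain, had the lowest value, -1.17 (adjusted p = 2.2e-06), from 16.9 ± 1.41 to 7.51 ± 0.629 CPM. LAMA2 was at 2.88, 1.87 and 1.82 CPM against 6.11, 7.60 and 4.48, a 2.75-fold rise (log2 1.46 ± 0.24, adjusted p = 0.00011).

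**Figure D4:**
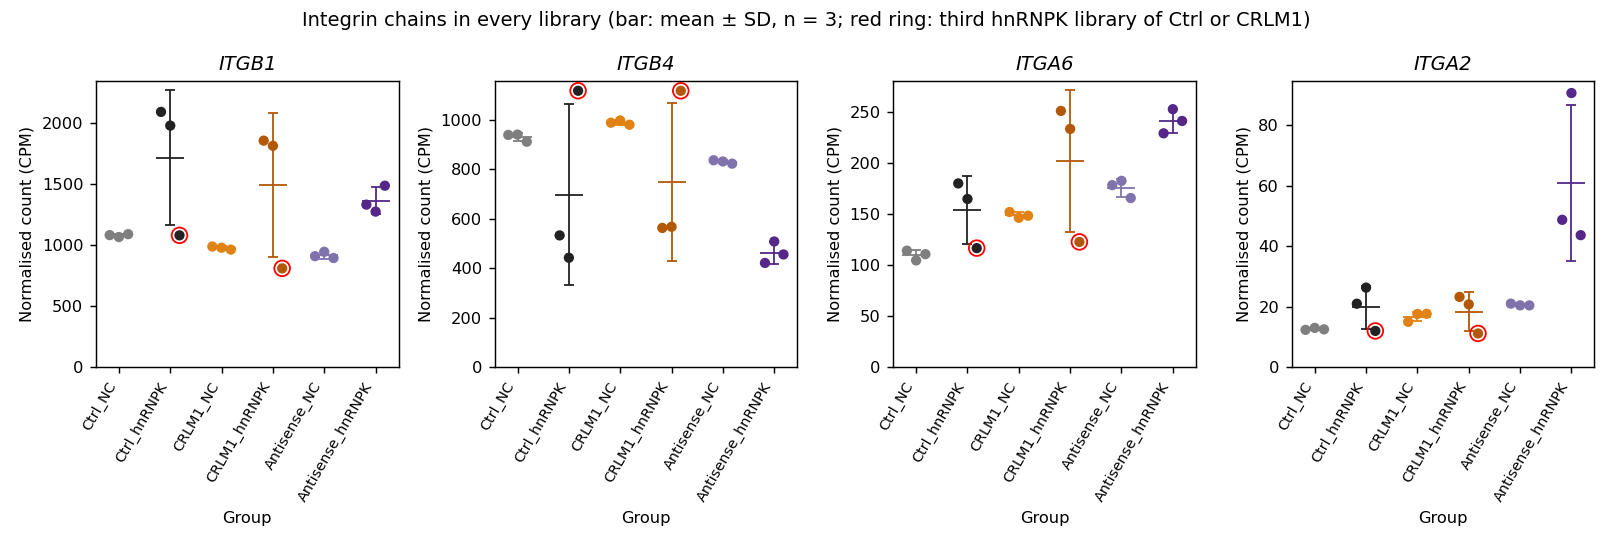
CPM of ITGB1, ITGB4, ITGA6 and ITGA2 in each library of the 6 groups, with mean ± SD, and with red rings around the third hnRNPK libraries of Ctrl and CRLM1. In Antisense_hnRNPK the 3 libraries of ITGB4 lie at 421 to 508 CPM, below all NC libraries, and the ringed libraries lie close to the NC groups or beyond them.

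In the Ctrl and CRLM1 backgrounds no chain passed with all libraries. For Ctrl_hnRNPK against Ctrl_NC the count was 0 of 24 chains beside 0.0% of all genes with the edgeR quasi-likelihood test, and DESeq2 and limma also gave 0 chains. At an unadjusted p of at most 0.05 there were 7 of 24 chains and 2246 of 14607 genes. For CRLM1_hnRNPK against CRLM1_NC edgeR again gave 0 of 24 chains beside 0.0% of all genes, and DESeq2 and limma gave 0 chains. Here 0 of 24 chains and 1332 of 14394 genes had an unadjusted p of at most 0.05. ITGB1 shows what the libraries held. It was at 1082, 1066 and 1089 CPM in Ctrl_NC and at 2093, 1980 and 1080 in Ctrl_hnRNPK, and at 988, 978 and 963 in CRLM1_NC and 1856, 1814 and 809 in CRLM1_hnRNPK. The first 2 hnRNPK libraries were well above every NC library in both backgrounds, and the third was within or below the NC range. ITGB4 was at 940, 941 and 912 CPM against 533, 442 and 1119 in Ctrl and at 990, 999 and 981 against 563, 568 and 1119 in CRLM1, so its first 2 hnRNPK libraries were below the NC range and the third above it.

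Without the third hnRNPK library, 16 of 24 chains passed in Ctrl, or 66.7% beside 59.6% of all genes, and 15 of 25 passed in CRLM1, or 60% beside 58.5%. In Ctrl 5 chains were higher and 11 lower (beside 29.6% and 29.9% of all genes), and in CRLM1 6 were higher and 9 lower (beside 29.5% and 29.1%). These fits rest on 2 hnRNPK libraries each. The library left out was chosen for its likeness to the NC libraries, which bears on the outcome tested. The p-values of these fits are therefore descriptive and do not stand as a test of hnRNPK. ITGB1 had log2 fold changes of 0.91 ± 0.048 in Ctrl and 0.95 ± 0.044 in CRLM1 (edgeR adjusted p = 5.4e-10 and 5.8e-16). ITGA6 rose by 0.65 and 0.74, ITGAV by 0.80 and 0.67, ITGA2 by 0.91 and 0.43 and LAMA3 by 0.48 and 0.55 on the log2 scale. LAMB1, with a log2 fold change of 0.34, passed in CRLM1.

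Without that library, ITGB4 had log2 fold changes of -0.93 in Ctrl and -0.77 in CRLM1, ITGA5 of -0.89 and -0.73, ITGB5 of -0.73 and -0.65, ITGA7 of -0.74 and -0.84, and ITGA3 of -0.40 and -0.31. Among the laminins, LAMC3 read -1.01 and -0.92, LAMB3 -0.72 and -0.40, LAMA5 -0.62 and -0.55, and LAMB2 -0.61 and -0.52. LAMC1 (-0.15) passed in Ctrl.

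The effects of hnRNPK followed the base composition of the genes in all 3 backgrounds. GC content, taken over the longest transcript, ran from 33.5% in ITGAV to 66.4% in LAMA5 among the chains. Over the 25 tested chains with a GC value, the Spearman correlation between GC content and the log2 fold change of Antisense_hnRNPK against Antisense_NC was -0.822, and over 14337 genes it was -0.712. This is a description across genes of the same libraries, which are not independent replicates. Genes under 40% GC had a median log2 fold change of 0.69 in that comparison and genes of at least 60% GC a median of -0.66. The chains of the same classes had medians of 0.56 and -0.76. In Ctrl and CRLM1 the correlations were -0.708 and -0.635 over all genes with all libraries, and -0.740 and -0.759 without the third hnRNPK library. In the comparisons among NC groups they were between -0.301 and 0.288.

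With the trend on GC content and length removed, 9 chains of 25 passed in the Antisense background (36.0%, beside 39.7% of all genes), 5 higher and 4 lower (beside 20.3% and 19.5%). ITGA5 (-0.67), LAMC3 (-0.51), ITGB5 (-0.41) and LAMC1 (-0.25) still had negative log2 fold changes past the threshold, and ITGA2 (1.00, adjusted p = 0.018) and LAMA2 (1.32) positive ones. ITGA3 (0.64) and ITGAE (0.69) passed there but not in the counts as deposited, and ITGA3 overlapped between the groups. ITGB1 then stood at -0.02 and ITGAV at -0.10, so their rise in this background did not hold, and ITGB4, LAMA5, LAMB2, LAMB3, ITGA7 and ITGA6 no longer passed. In Ctrl and CRLM1, with the trend removed and the third hnRNPK library left out, 12 of 24 and 10 of 25 chains passed (beside 25.6% and 27.4% of all genes). ITGB1 then stood at 0.30 and 0.38, LAMA3 at 0.58 and 0.60, ITGB4 at -0.32 and -0.19 and ITGA5 at -0.54 and -0.45. ITGA3 took the opposite sign, 0.16 and 0.21. So did ITGAV and LAMA5 in both backgrounds, and ITGA2 and LAMB3 in CRLM1. What part of the trend comes from the libraries and what part from the cells was not tested.

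**Figure D5:**
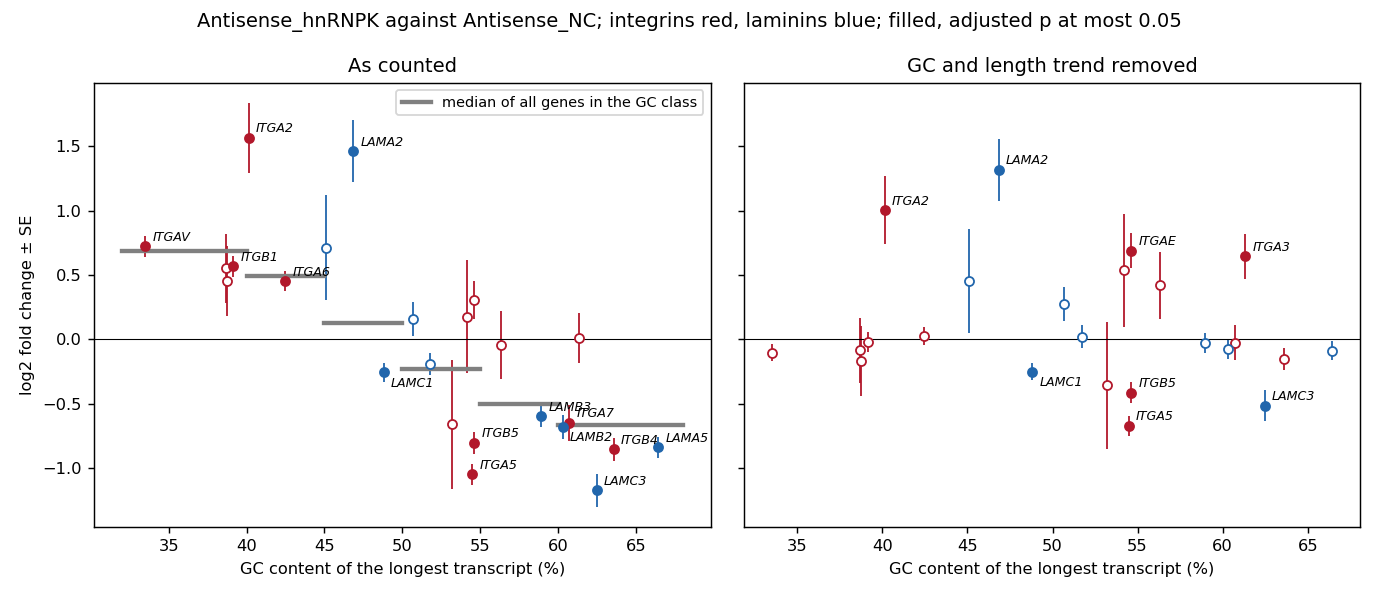
Log2 fold change of Antisense_hnRNPK against Antisense_NC for each tested chain against the GC content of its longest transcript in percent, as counted (left, with the median of all genes per GC class in grey) and with the trend on GC content and length removed (right). On the left the chains run from positive values at low GC content to negative values at high GC content, along with all genes.

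Whether hnRNPK acted differently on the chains in CRLM1 cells was tested as the difference of its effects between backgrounds. With all libraries, edgeR passed 0 chains for CRLM1 against Ctrl, beside 0.0% of all genes. It passed 0 of 26 for CRLM1 against Antisense, beside 1.12%. In the first, 0 chains and 221 of 15188 genes had an unadjusted p of at most 0.05. In the second, 4 of 26 chains and 3115 of 15233 genes did. Without the third hnRNPK libraries, 2 of 26 chains passed for CRLM1 against Ctrl (7.69%, beside 3.45%) and 9 of 26 for CRLM1 against Antisense (34.6%, beside 26.5%). ITGB1 rose further in CRLM1 than in Antisense (0.45 ± 0.085, edgeR adjusted p = 0.00025), and ITGA2 less (-1.32 ± 0.32, adjusted p = 0.015). These fits rest on 2 hnRNPK libraries per background, and the third Antisense_hnRNPK library was left out although it resembled its replicates. The third libraries of Ctrl and CRLM1 were chosen by their profile, so these p-values are descriptive. For ITGA2 this left Antisense_hnRNPK libraries at 5.8 and 11.48 FPKM, the one left out being at 5.08. In fits that left out a single library, ITGB1 ran from -0.12 to 0.39 on the log2 scale. Without the third libraries and with the GC and length trend removed, 0 of 26 chains passed for CRLM1 against Ctrl (beside 1.21%). There 3 of 26 chains and 1949 of 15485 genes had an unadjusted p of at most 0.05. For CRLM1 against Antisense 8 of 26 passed (beside 27.0%), ITGB1 (0.43) and ITGA2 (-1.33) among them.

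Genes that act beside the chains were read from lists of 42 adhesion complex genes and 36 matrix and basement membrane genes, of which 42 and 35 were in the table. These lists were also chosen with earlier results of these data known. In Antisense_NC against Ctrl_NC, 20 of the 25 matrix genes tested fell (80.0%, beside 32.2% of all genes) and 2 rose (8.0%, beside 34.4%). In CRLM1_NC against Antisense_NC, 18 of 26 were higher (69.2%, beside 26.9%) and 2 lower (7.69%, beside 29.5%). CYR61, a matricellular ligand of integrins, was at 683 ± 9.40 CPM with the empty control, 442 ± 16 with CRLM1 and 110 ± 3.90 with the antisense control (NC groups). CTGF, a related protein, was at 63.9 ± 2.66, 46.8 ± 0.980 and 12.4 ± 0.305 CPM in that order, the order of LAMA3. THBS1, which encodes thrombospondin 1, was 0.84 higher on the log2 scale in CRLM1_NC than in Ctrl_NC and 1.66 higher than in Antisense_NC. COL17A1, the hemidesmosome collagen, had log2 fold changes of -0.53 in CRLM1_NC and -1.47 in Antisense_NC against Ctrl_NC.

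In CRLM1_NC against Ctrl_NC, 4 matrix genes rose (15.4%, beside 16.9% of all genes) and 9 fell (34.6%, beside 17.4%) of 26 tested. Of the 41 adhesion complex genes tested there, 13 rose (31.7%), among them FERMT2 (0.44), VCL (0.42) and ACTN1 (0.38), which encode kindlin-2, vinculin and alpha-actinin, and 8 fell (19.5%). In Antisense_NC against Ctrl_NC, 15 adhesion genes rose (36.6%, beside 34.4%), VCL (0.54) included, and 20 fell (48.8%, beside 32.2%). In CRLM1_NC against Antisense_NC 16 were higher (39.0%, beside 26.9%) and 8 lower (19.5%, beside 29.5%).

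With hnRNPK in the Antisense background 22 adhesion genes fell (53.7%, beside 30.5% of all genes) and 10 rose (24.4%, beside 33.4%). ZYX, which encodes zyxin, had a log2 fold change of -1.42, CD81 of -1.16 and FLNA, which encodes filamin A, of -0.88. Of 24 matrix genes 16 fell (66.7%) and 3 rose (12.5%), and HSPG2, the gene of perlecan, fell by 1.35 on the log2 scale. With the GC and length trend removed, 10 adhesion genes fell and 3 rose (24.4% and 7.32%, beside 19.5% and 20.3% of all genes), and 11 matrix genes fell and 2 rose (45.8% and 8.33%). ZYX then stood at -0.72 and HSPG2 at -0.66. Without the third hnRNPK library, 20 adhesion genes fell and 10 rose in Ctrl (48.8% and 24.4%, beside 29.9% and 29.6% of all genes), and 22 fell and 10 rose in CRLM1 (53.7% and 24.4%, beside 29.1% and 29.5%), while 14 matrix genes fell in each (1 and 3 rose). With the trend removed as well, the balance of adhesion genes turned in CRLM1, where 4 fell and 7 rose (9.76% and 17.1%, beside 13.7% and 13.7%), and in Ctrl 13 fell and 4 rose (31.7% and 9.76%, beside 14.1% and 11.5%). Of the matrix genes, 10 then fell and 3 rose in Ctrl, and 7 fell and 3 rose in CRLM1.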

How the data were processed

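Total RNA was sequenced as paired-end libraries made with the KAPA RNA HyperPrep kit. Per the labels and the study's methods, the authors trimmed reads, aligned them to GRCh38 with a Gencode annotation by TopHat2, and deposited whole-number counts of uniquely mapped reads per gene and FPKM values per gene, rounded to hundredths. The strand used in counting was not given in the sources used here. Counts were tested with edgeR 4.0.16 in R 4.3.3 (TMM scaling, filterByExpr, quasi-likelihood F-test, two-sided, Benjamini-Hochberg over all genes tested, threshold 0.05). Each comparison of 2 groups was fitted on its own 6 libraries, and each interaction on 12. CPM was TMM-scaled over 18 libraries. Alternatives were RLE scaling, no filter, DESeq2 1.42.0, a single fit of 18 libraries, limma 3.58.1 on log2(FPKM + 0.1) and log2(FPKM + 1), where fold changes of low genes are understated, a replicate block, a loess trend (span 0.5) on GC content and length removed, and leaving out libraries. Coordinates are from Gencode 44 (GRCh38). p-values measure the spread between these biological replicates. Counts cover all 34 chains, of which 1 is not reported here. Every other chain could be named, and a fold change was given for those past the threshold, with the SE and adjusted p for the chains described most closely. From the other 2 lists, at most the 3 highest and 3 lowest changes past the threshold with a mean of at least 1 CPM were named. The chains and lists were chosen with earlier results of these data known. The scripts were tested on simulated data.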

Additional observations from a re-analysis of the deposited data

Results flagged for a closer look

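The difference between the effects of hnRNPK in 2 backgrounds passed the edgeR test for several chains once the third hnRNPK libraries were left out, and for no chain with all libraries, where 25 were tested in the first pair of backgrounds and 26 in the second. Between CRLM1 and Ctrl, the log2 effect was higher in CRLM1 by 0.27 for LAMC1, the laminin gamma1 chain, which did not pass once the GC and length trend was also removed. Between CRLM1 and Antisense, the effect was higher in CRLM1 by 0.45 for ITGB1, 0.29 for ITGA6, 0.35 for ITGA5, 0.63 for LAMB1, 0.37 for LAMC1, 0.49 for LAMA3 and 0.28 for LAMA5. It was lower in CRLM1 for ITGA2 (-1.32). With the GC and length trend removed as well, ITGB1, ITGA6, ITGA5, LAMB1, LAMC1 and ITGA2 still passed, ITGAE (-0.60) passed in addition, and LAMA3 and LAMA5 did not. Many other genes passed too. Without the third libraries, 3.45% of all genes passed between CRLM1 and Ctrl and 26.5% between CRLM1 and Antisense. With the trend also removed these shares were 1.21% and 27.0%. Each of these tests rests on 2 hnRNPK libraries per background, left after a choice made by library profile. Between CRLM1 and Antisense, the third Antisense_hnRNPK library was left out as well, although it resembled its replicates.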

How the results depend on the processing

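Among the comparisons of NC groups, 742 alternative values were computed for 53 results, of which 607 kept their direction and side of the threshold, 124 lost the call and 11 reversed. Among the hnRNPK comparisons and interactions, 831 values were computed for 53 results, of which 708 kept theirs, 17 lost the call, 70 gained it and 36 reversed. The cause of a change was not tested unless stated. Where a count of chains under an alternative, here or above, stands without the share of all genes, that share was not computed. Such a count cannot show whether the chains lost or kept calls more often than other genes.

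The single fit of 18 libraries, whose spread includes the third hnRNPK libraries, left 0 chains for CRLM1_NC against Ctrl_NC (18 as reported), 5 for CRLM1_NC against Antisense_NC (17) and 12 for Antisense_NC against Ctrl_NC (21). On log2(FPKM + 0.1) and log2(FPKM + 1), 12 and 12 chains passed for Antisense_NC against Ctrl_NC. There ITGB4 stood at 0.035 and 0.035, ITGA5 at 0.057 and 0.056, LAMC1 at 0.073 and 0.071 and LAMA5 at 0.070 and 0.067, and LAMA5 also stood at 0.068 with the GC and length trend removed. ITGB1 stood at -0.048 and -0.048 for CRLM1_NC against Antisense_NC on both FPKM scales.

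With the trend removed, then with the third hnRNPK library also left out (a combination chosen after seeing the data), the hnRNPK values reversed as follows. In Ctrl, ITGA3 was at 0.15 and 0.16, ITGAV at -0.088 and -0.045 and LAMA5 at 0.051 and 0.0060. In CRLM1, ITGA2 was at -0.14 and -0.11, ITGA3 at 0.23 and 0.21, ITGAV at -0.11 and -0.11, LAMB3 at 0.063 and 0.044 and LAMA5 at 0.10 and 0.094. In Antisense, ITGB1 was at -0.021 and -0.051 and ITGAV at -0.10 and -0.12, and with the library also left out ITGA7 was at 0.0084 and LAMB3 at 0.0046. The counts were 12 for Ctrl and 10 for CRLM1 in the combination, and 9 and 9 for Antisense (15 as reported). For CRLM1 minus Ctrl, 2 chains passed without the third libraries. For CRLM1 minus Antisense, 1 passed without the filter, 2 with the trend removed, 9 without the third libraries and 8 in the combination.

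Leaving out 1 library gave 12 to 16 chains for CRLM1_NC against Ctrl_NC, 15 to 18 for CRLM1_NC against Antisense_NC, 20 to 21 for Antisense_NC against Ctrl_NC, 0 to 16 for Ctrl_hnRNPK, 0 to 15 for CRLM1_hnRNPK and 14 to 16 for Antisense_hnRNPK, 0 to 0 for CRLM1 minus Ctrl and 0 to 6 for CRLM1 minus Antisense. The 16 and 15 were reached without the third hnRNPK library. In CRLM1_hnRNPK the log2 fold change ran from -0.049 to 0.43 for ITGA2, -0.31 to 0.086 for ITGA3 and -0.041 to 0.34 for LAMB1. For CRLM1 minus Antisense, it ran from -0.12 to 0.39 for ITGB1, -0.17 to 0.30 for ITGA6 and -0.016 to 0.41 for LAMA3. ITGA6, at 0.02 with all libraries, was at -0.0036 with RLE scaling, -0.0148 in the single fit and -0.0262 with the replicate block. Same-numbered libraries correlated at -0.13 to 0.08 in their deviations from the group means, which gives little sign of pairing by replicate number. The labels do not say whether replicates were handled in pairs. With the replicate block 18, 18, 21, 0, 0 and 15 chains passed in the 6 comparisons of 2 groups and 0 in both interactions.

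Depth limits chains under about 15 counts. Fragments mapped to overlapping or antisense genes could not be told apart.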
